A study of Mus musculus with 12 samples.

Results

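The genes described here are 10 genes of macrophages and of leukocytes in general, Ptprc, Cd52, Cd53, Laptm5, Fcer1g, Tyrobp, Csf1r, Cd68, C1qa and C1qb. They were listed by name, and each probe that the platform annotation assigns to one of these symbols was taken. Of the 10 genes 9 had a probe, with 15 probes in all, and Cd68, a lysosomal glycoprotein of macrophages, has no probe named in that annotation. Probes were kept where they rose above the background of the array on at least 4 of 12 arrays, which left 8 genes with 1 kept probe each, among 11298 genes tested.

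Expression was measured with Illumina bead arrays in 12 pools of whole-organ RNA from newborn female mice at postnatal day 3. The pools fell into 3 groups of 4, namely cHet vagina, cKO vagina and cHet uterus. The cHet mice were Trp63 flox/wt ; Pax2-cre and the cKO mice Trp63 flox/floxt ; Pax2-cre (spelled as in the labels), so every group carried the cre transgene and at least 1 floxed copy of Trp63, the gene of the epithelial transcription factor p63. All were of a mixed background of C57BL/6, S129/5 and CD-1, and each pool held RNA of 3 mice. Cre was driven by Pax2, a gene of the developing urogenital ducts. No mouse without cre and no cKO uterus is among the groups.

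Macrophages settle in most organs before birth, clear dying cells and debris, and depend for survival on the receptor encoded by Csf1r. Leukocytes share a set of membrane proteins that other cells largely lack. These include the phosphatase CD45 (Ptprc), the small glycoprotein CD52, the tetraspanin CD53 and the lysosomal protein LAPTM5. Fcer1g and Tyrobp encode small adapters that carry the immunoreceptor activation motif (ITAM) for Fc and TREM-type receptors and pass their signal to the kinase Syk. C1qa and C1qb encode chains of C1q, the molecule that starts the classical complement pathway and that tissue macrophages make in quantity. In RNA of a whole organ, fewer cells of a type and less RNA per cell cannot be told apart.

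The deposited intensities had array medians of 72.3 to 93.9, and 39.3% to 48.2% of probes lay above background on an array. The first principal component held 48.1% of the variance and the second 14.8%. The Trp63 probe stood at log2 4.53 to 4.76 in cHet uterus, 9.36 to 9.75 in cHet vagina and 9.07 to 9.91 in cKO vagina. It may lie outside the deleted part, which the sources used here do not give, so its level tests neither the deletion nor the group names. Replicates 1 and 2 differed from replicates 3 and 4 in 1380 of 11298 genes across the groups, and in 0 of the 8 tested leukocyte genes. With so few genes, 0 does not set them apart from the rest. The labels do not say what the replicate numbers share, so differences within each of these sets are given below.

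Of the shared leukocyte membrane genes, Cd53 and Laptm5 are the tested ones that have a promoter window in the RefSeq table used here (GRCm38.p6, 250 bases before and 50 after the transcription start). Their sequences are shown for that reason. Both genes had their lowest group mean in cHet vagina, but so had Cd52, Fcer1g, Tyrobp, Csf1r and C1qb. Each is given 5′ to 3′ on the strand of its gene. Capitals mark GAGGAA or its reverse complement TTCCTC, the core that PU.1, an Ets-family factor of myeloid cells, prefers.
Cd53, chr3:106790100-106790399, minus strand: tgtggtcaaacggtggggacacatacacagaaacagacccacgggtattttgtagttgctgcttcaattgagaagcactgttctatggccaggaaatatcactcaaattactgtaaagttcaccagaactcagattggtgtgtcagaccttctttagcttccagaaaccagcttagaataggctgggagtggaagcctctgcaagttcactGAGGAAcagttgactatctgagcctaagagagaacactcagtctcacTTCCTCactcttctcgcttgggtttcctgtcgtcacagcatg
Laptm5, chr4:130913066-130913365, plus strand: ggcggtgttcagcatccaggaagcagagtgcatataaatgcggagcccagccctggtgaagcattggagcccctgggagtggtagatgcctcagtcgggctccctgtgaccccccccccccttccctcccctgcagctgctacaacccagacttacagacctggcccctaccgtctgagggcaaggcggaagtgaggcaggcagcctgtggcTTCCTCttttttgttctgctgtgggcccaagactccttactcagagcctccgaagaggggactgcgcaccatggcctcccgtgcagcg
The Cd53 window held 2 matches and the Laptm5 window 1. Of the other tested genes with a window, Fcer1g held 0 and C1qb 1. Windows were found for 6 of the 10 genes, 7 windows in all since Ptprc has 2, and 5 of the 7 windows (71.4%) held a match on either strand. Among all 32851 windows 9289 held the motif, or 28.3%. A match is a description of the letters and does not show that a factor binds there.

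The leukocyte genes differed in whether the arrays could read them at all. All 4 Ptprc probes were above background on 0 of 12 arrays. Their intensities lay between 6.78 below and 4.76 above the background mode of their array. Ptprc, the gene of the pan-leukocyte phosphatase CD45, therefore has no measured level in any group, and nothing about it can be compared. A second probe of Cd52 was above background on 2 arrays, a second probe of Csf1r on 1, and a second probe of Cd53 on 0.

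Among the kept probes, 7 were above background on all 12 arrays. The exception was C1qa, above background in 2 of 4 cHet uterus pools, 3 of 4 cHet vagina pools and 3 of 4 cKO vagina pools. Its highest intensity over the background mode was 16.1, in cKO vagina replicate 3. Laptm5, Fcer1g and C1qb stood further above their arrays' background, with lowest values of 101, 61.3 and 57.8. The Cd53 probe was nearest to background in cHet vagina replicate 1, with an excess of 7.12, against 19.0 to 31.1 in the 8 pools of the other groups. A probe's brightness depends on its sequence, so these values do not rank the genes by RNA amount.

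**Figure D1:**
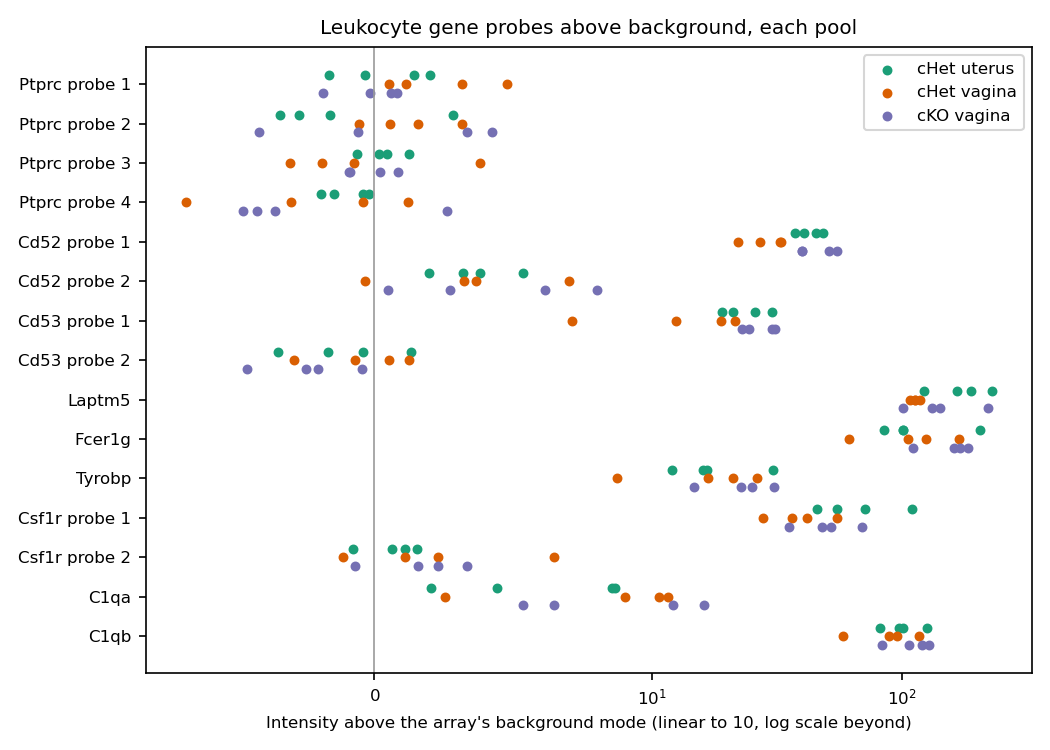
Intensity of each of the 15 leukocyte gene probes above the background mode of its array (horizontal axis, deposited intensity units, linear up to 10 and log scale beyond), with 1 point per pool and colours for the 3 groups. All 4 Ptprc probes scatter around 0, between -6.78 and 4.76, while the main probes of Laptm5, Fcer1g and C1qb lie above 50 in every pool.

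The first question was how the leukocyte genes differ between the 2 organs of the control genotype, cHet vagina and cHet uterus. Csf1r, Cd52 and Cd53 were lower in the vagina, by 1.42-fold to 1.61-fold with the background correction used here. None of the 8 leukocyte genes was called higher. A gene was called where its limma p-value, adjusted over all 11298 genes by the Benjamini-Hochberg method, was under 0.05. Of all genes tested 18.4% were called in this comparison, 1054 higher and 1021 lower in the vagina, so the 3 of 8 stand beside a comparison in which many genes differ. The median difference of the 8 was -0.39 on the log2 scale, against -0.016 for all genes. P-values here weigh a difference of group means against the spread between pools. Each pool mixes 3 mice, so the spread between single mice is not seen.

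Cd52, whose product is a small anchored glycoprotein of lymphocytes and macrophages, was read at normalized log2 intensities of 6.02, 6.31, 5.85 and 5.85 in cHet uterus replicates 1 to 4. In cHet vagina it stood at 5.46, 5.62, 5.53 and 5.40, and in cKO vagina at 6.00, 5.52, 5.99 and 5.74. All 4 cHet vagina pools lay below all 4 uterus pools, while the cKO vagina pools spanned both ranges. The vagina minus uterus difference was -0.51 (SE 0.15, limma adjusted p = 0.0243), from a mean of 6.01 ± 0.22 to 5.50 ± 0.095 (SD, n = 4 each).

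Cd53, the tetraspanin gene, stood at 5.42, 5.47, 5.32 and 5.55 in cHet uterus. In cHet vagina the values were 4.63, 4.85, 5.07 and 5.20, and in cKO vagina 5.45, 5.10, 5.41 and 5.21. Every cHet vagina pool was again below every uterus pool, and its lowest pool was replicate 1, also the pool where the probe came nearest to background. The difference was -0.50 (SE 0.14, limma adjusted p = 0.0223), from 5.44 ± 0.099 to 4.94 ± 0.25 (SD, n = 4 each). Cd52 and Cd53 were the 2 leukocyte genes whose cHet groups did not overlap, and 21.4% of all genes had groups that did not overlap in this comparison.

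Laptm5, which targets antigen receptors of leukocytes for breakdown in lysosomes, stood at 7.67, 8.19, 7.24 and 7.55 in cHet uterus. In cHet vagina it stood at 7.28, 7.02, 6.86 and 7.002, and in cKO vagina at 7.30, 6.90, 7.71 and 6.82. Vagina replicate 1 lay just above uterus replicate 3, so the cHet groups overlapped. The difference of -0.62 (SE 0.21) was larger than that of Cd52 or Cd53 on the log2 scale but missed the threshold, with a limma adjusted p of 0.0545. It passed in 4 of 25 alternative settings. The adjusted p was 0.0346 with replicates 1 and 2 against 3 and 4 as a block, 0.0371 with only the 2 groups fitted, 0.0254 without cHet uterus replicate 3 and 0.0314 without cKO vagina replicate 3, which enters only the shared estimate of the spread.

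Csf1r, the receptor through which CSF1 and IL34 keep macrophages alive, stood at 6.95, 6.79, 6.08 and 6.21 in cHet uterus. In cHet vagina it stood at 5.68, 5.72, 5.77 and 6.12, and in cKO vagina at 5.93, 6.11, 5.93 and 5.61. The uterus pools fell into a higher pair, replicates 1 and 2, and a lower pair, replicates 3 and 4, and the lowest uterus pool was below the highest cHet vagina pool. The difference was -0.68 (SE 0.19, limma adjusted p = 0.0191), or 1.61-fold, from 6.51 ± 0.43 to 5.82 ± 0.20 (SD, n = 4 each). It was -1.17 between replicates 1 and 2 of the 2 organs and -0.20 between replicates 3 and 4. The probes of both ligands of the receptor, Csf1 and Il34, were above background on too few arrays to be tested.

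C1qb stood at 7.15, 7.21, 6.95 and 6.67 in cHet uterus. In cHet vagina it stood at 6.44, 7.06, 6.70 and 6.69, and in cKO vagina at 7.17, 6.78, 6.78 and 6.56. The 3 groups overlapped throughout, and the vagina minus uterus difference of -0.27 (SE 0.17, limma adjusted p = 0.342) was about the size of the spread between pools. C1qa, another chain of the same molecule, stood at 4.66, 4.27, 4.67 and 4.37 in cHet uterus. In cHet vagina its values were 4.28, 4.67, 4.74 and 4.71, and in cKO vagina 4.46, 4.39, 4.88 and 4.74. Its difference was 0.11 (SE 0.16, limma adjusted p = 0.727). The sign was opposite to that of C1qb, in a probe close to background, where log2 differences are compressed. The third C1q chain, C1qc, differed by -0.48 (SE 0.21, limma adjusted p = 0.134).

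The adapter genes did not separate the organs. Fcer1g stood at 7.78, 7.01, 6.99 and 6.92 in cHet uterus, 7.13, 6.28, 7.05 and 7.54 in cHet vagina, and 7.55, 6.67, 7.48 and 7.40 in cKO vagina. Its SD within groups was 0.41 to 0.53, the widest of the 8 genes in cHet vagina, where the lowest and highest pools were more than 1 log2 unit apart. The vagina minus uterus difference was -0.18 (SE 0.26, limma adjusted p = 0.738), with a 95% interval of -0.73 to 0.38.

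Tyrobp, the DAP12 adapter gene, stood at 5.58, 5.10, 5.11 and 5.02 in cHet uterus, 4.76, 5.06, 5.16 and 5.38 in cHet vagina, and 5.46, 5.13, 5.13 and 4.86 in cKO vagina. The ranges of all 3 groups overlapped. The vagina minus uterus difference was -0.11 (SE 0.17, limma adjusted p = 0.741), with a 95% interval of -0.48 to 0.25. For both adapters the interval includes differences of the size seen in Cd52 or Cd53, or nearly so, and the difference between the genes was not tested.

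**Figure D2:**
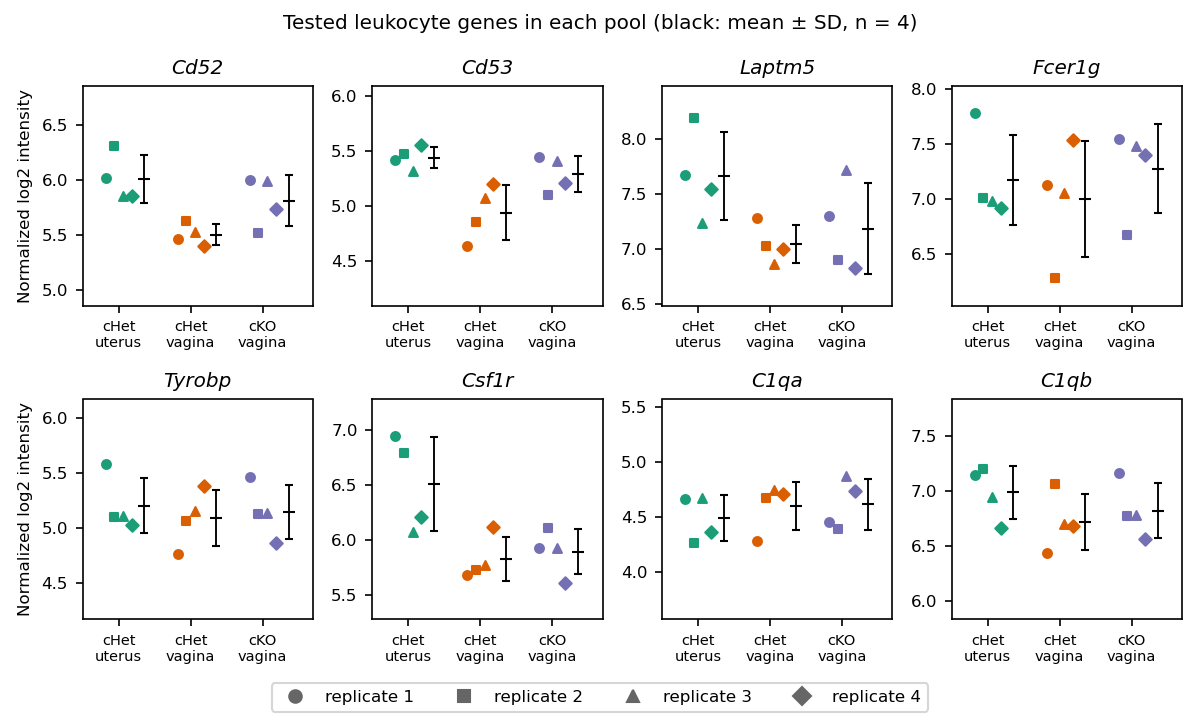
Normalized log2 intensity (vertical axes, each panel 2 log2 units high) of the 8 tested leukocyte genes in each pool, with symbols for replicates 1 to 4, colours for the 3 groups, and the mean ± SD (n = 4) in black. In Cd52 and Cd53 all cHet vagina pools lie below all cHet uterus pools, and in Csf1r uterus replicates 1 and 2 stand above every other pool.

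The calls between the organs lay near the threshold, and leaving out a single pool could remove them. Cd52 and Cd53 each passed in 19 of 25 alternative settings and Csf1r in 18. Without cHet vagina replicate 1 none of the 8 genes was called, with limma adjusted p-values of 0.0565 for Cd52, 0.0789 for Cd53 and 0.0553 for Csf1r. Their log2 differences were then -0.491, -0.399 and -0.635, from fewer pools. The call of Cd52 was also lost without cHet uterus replicate 2 (0.0795) or cHet vagina replicate 4 (0.0679). That of Cd53 was lost without cHet uterus replicate 4 (0.0661) or cHet vagina replicate 2 (0.0574). That of Csf1r was lost without cHet uterus replicate 1 (0.0662) or 2 (0.0644), or without cHet vagina replicate 2 (0.0507). Without normalization between arrays, 0 of the 8 were called, and with array weights the call of Csf1r was lost (log2 difference -0.47, adjusted p of 0.0834). In every one of the 25 settings tried the differences of Cd52, Cd53, Laptm5, Csf1r and C1qb stayed negative.

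Within the sets of replicates the organ difference was not of 1 size. Between replicates 1 and 2 of the 2 organs the median difference over the 8 genes was -0.66, and between replicates 3 and 4 it was -0.16. The difference was larger in absolute size in replicates 1 and 2 for 7 of the 8 genes. Fcer1g changed sign, from -0.69 to 0.34, and so did Tyrobp, from -0.43 to 0.20. The shared membrane genes kept theirs, with -0.63 and -0.39 for Cd52, -0.70 and -0.30 for Cd53, and -0.78 and -0.46 for Laptm5. What the sets share was not tested, and each value rests on 2 pools a group.

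**Figure D3:**
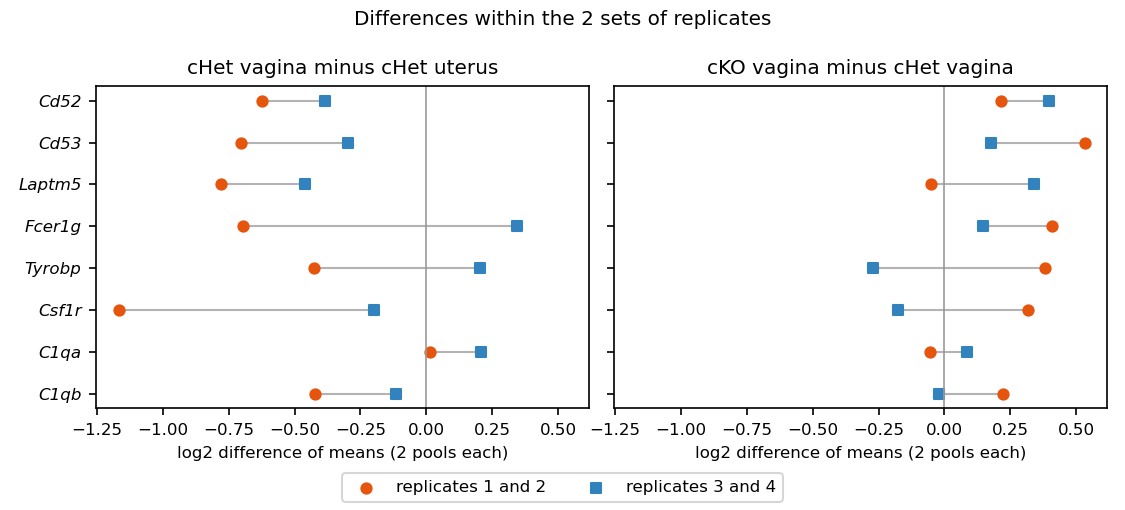
Difference of group means (horizontal axes, log2) for each leukocyte gene, between replicates 1 and 2 (circles) and between replicates 3 and 4 (squares), 2 pools a group, for the organs on the left and the genotypes on the right. On the left the circles lie at or left of the squares, with Csf1r at -1.17 and -0.20; on the right 3 of 8 genes have the same sign in both sets.

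The second question, which gives the series its title, was what changes in the vagina when both Trp63 copies are floxed. Between cKO and cHet vagina 0 of the 8 leukocyte genes were called, with limma adjusted p-values of 0.587 to 0.994. The background in this comparison was 0.381%, or 43 of 11298 genes, 6 higher and 37 lower in cKO vagina. At an unadjusted p under 0.05, 1 of the 8 passed, as did 7.07% of all genes. All 25 alternative settings also gave 0 calls, with C1qa left out of the setting that asked for signal on all 12 arrays.

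The mean of each of the 8 genes was higher in cKO than in cHet vagina, by 0.014 (C1qa) to 0.35 (Cd53) on the log2 scale, with a median of 0.12 against -0.008 over all genes. The genes share arrays and cells, so 8 of 8 is not 8 separate observations. In no gene did the groups fail to overlap, and 4.34% of all genes did so. Cd53, the gene that passed before adjustment, differed by 0.35 (SE 0.14, limma adjusted p = 0.587). Cd52 followed with 0.31 (SE 0.15, limma adjusted p = 0.731), and Fcer1g with 0.28 (SE 0.26, limma adjusted p = 0.916). Laptm5, C1qb, Csf1r and Tyrobp had 0.14, 0.10, 0.07 and 0.06.

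The 95% intervals over the 8 genes ran from -0.34 to 0.84. Those of Cd53 (0.05 to 0.66) and Cd52 (-0.007 to 0.62) lay wholly or almost wholly above 0, without adjustment for the number of genes. For the other genes moderate differences in either direction are not shown to be absent. For Csf1r the interval was -0.34 to 0.48, for Tyrobp -0.31 to 0.42 and for C1qb -0.26 to 0.46. The sign was not stable for every gene. Without cKO vagina replicate 3, the difference of Laptm5 was -0.03 and that of C1qa -0.07, and the median over the 8 was 0.088. Between replicates 3 and 4 alone Tyrobp had -0.27 and Csf1r -0.18, while between replicates 1 and 2 they had 0.38 and 0.32. Cd52, Cd53 and Fcer1g stayed positive in every setting.

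The difference between cKO vagina and cHet uterus shares its samples with both comparisons above. Csf1r was lower in cKO vagina by 0.61 on the log2 scale, or 1.53-fold (SE 0.19, limma adjusted p = 0.0351), and was the only 1 of the 8 called. Of all genes 18.2% were called, 997 higher and 1054 lower. In 0 of the 8 did the groups fail to overlap, against 21.4% of all genes. Csf1r passed in 14 of 25 alternative settings, and was not called without cHet uterus replicate 1 (0.112) or 2 (0.111), or without cKO vagina replicate 1 (0.0643), 3 (0.0597) or 4 (0.108).

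Laptm5 differed by -0.48 (SE 0.21, limma adjusted p = 0.149), and by -0.65 with an adjusted p of 0.0387 without cKO vagina replicate 3, its highest cKO pool at 7.71. Cd52 and Cd53, both called between the cHet organs, had -0.20 (SE 0.15, limma adjusted p = 0.427) and -0.15 (SE 0.14, limma adjusted p = 0.565) here. C1qb had -0.17, Tyrobp -0.06, Fcer1g 0.10 and C1qa 0.12.

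Set in order, the group means ran from cHet uterus through cKO vagina to cHet vagina in 6 of the 8 genes. Fcer1g was highest in cKO vagina and lowest in cHet vagina, and C1qa was highest in cKO vagina and lowest in cHet uterus. For Cd52 and Cd53 only the ends of that order, cHet uterus and cHet vagina, passed the test at an adjusted p under 0.05. Between cKO and cHet vagina Cd53 passed only before adjustment, with a limma p of 0.0265 and an adjusted p of 0.587. For Csf1r the uterus differed from both vaginal groups, which did not pass the test against each other. No neighbours in the order of Laptm5, Fcer1g, Tyrobp, C1qa or C1qb passed it.

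**Figure D4:**
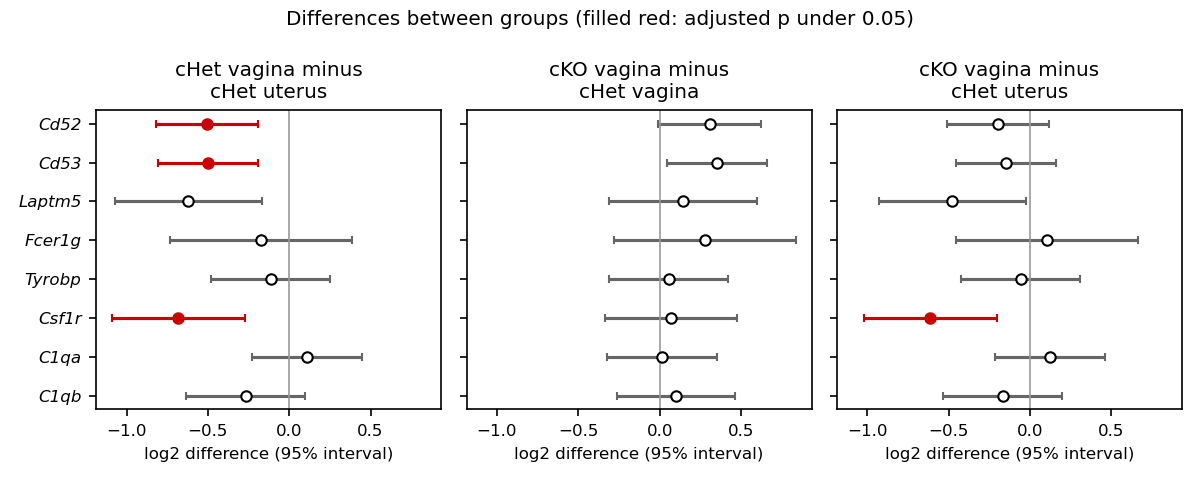
Difference of group means (horizontal axes, log2, with 95% intervals from limma) for the 8 leukocyte genes in the 3 comparisons, with filled red points for adjusted p under 0.05. Between the cHet organs Cd52, Cd53 and Csf1r are called at -0.51, -0.50 and -0.68, between the genotypes none is, and between cKO vagina and cHet uterus Csf1r is, at -0.61.

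Within groups the leukocyte genes varied together only loosely. Over the 12 pools, the deviations from group means of 2 of the 8 genes correlated with a median Pearson r of 0.30 over 28 pairs, from -0.218 to 0.777, and 25 pairs were above 0. Cd52 and Laptm5 were the closest pair (0.777), followed by Tyrobp and Csf1r (0.663). C1qa followed the other 7 least (0.156) and Tyrobp most (0.683). All genes of a pool share its array and its RNA, and no p is given.

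The mean deviation of the 8 genes shows which pools were high. It was 0.39 and 0.28 in cHet uterus replicates 1 and 2, and 0.014 and 0.0065 in replicates 3 and 4. In cHet vagina it was -0.30, -0.22, -0.15 and -0.0059, and in cKO vagina 0.15, -0.19, 0.16 and -0.14. The lowest uterus pool lay just above the highest cHet vagina pool, and cKO vagina replicates 1 and 3 lay among the uterus pools.

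Likeness was measured again on deviations from the group means, between each other gene and the mean of the 8 over the 12 pools. The 8 genes with the highest Pearson r were Eln (0.921), Prss35 (0.905), Ccl9 (0.897), Fxyd5 (0.896), Pi16 (0.896), Gng8 (0.893), Scg5 (0.862) and Cetn2 (0.850). They were picked for this likeness among all genes tested, where the median r was -0.00277 and 25 genes exceeded 0.8. Eln encodes elastin of connective tissue and Ccl9 a chemokine made by myeloid cells. Eln stood at 9.88, 10.03, 9.59 and 9.45 in cHet uterus and 9.52, 9.54, 9.61 and 9.85 in cHet vagina. In cKO vagina it stood at 9.95, 9.56, 10.07 and 9.48, so its 3 groups overlapped. Ccl9 stood at 5.87, 5.80, 5.38 and 5.25 in cHet uterus, 4.68, 4.74, 4.62 and 5.04 in cHet vagina, and 5.01, 4.54, 5.42 and 4.76 in cKO vagina. Of the 21 other macrophage genes described next, 15 had an r above 0, with a median of 0.244 and a range from -0.553 for Stab1 to 0.801 for Lyz2 and for Mrc1. Of 6 red blood cell genes 6 had an r above 0, with a median of 0.606. This was not particular to blood, since 7 of 7 mesenchyme genes (median 0.379) and 9 of 9 skeletal muscle genes (0.362) did too. So did 8 of 8 mast cell genes (0.132), against 2 of 7 epithelial genes (-0.146).

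Other macrophage genes were tested as a list of 21. Between the cHet organs 5 were lower in the vagina, 1 was higher, and the list median was -0.21. Cd83, a surface glycoprotein of activated antigen-presenting cells, was lower by 2.81 on the log2 scale (SE 0.20, limma adjusted p = 5.84e-08), from 8.04 ± 0.30 to 5.23 ± 0.35 (SD, n = 4 each). Lyve1, the hyaluronan receptor of some tissue macrophages and of lymphatic vessels, was lower by 1.76 and Pf4, a chemokine of platelets and macrophages, by 0.87. F13a1, a clotting factor chain of tissue macrophages, and the lysozyme gene Lyz2 were each lower by 0.86, and these last 2 are named after their values were seen. The gene that was higher was Cd14, the lipopolysaccharide co-receptor, by 2.40 (SE 0.21, limma adjusted p = 5.01e-07), at 9.18 ± 0.25 in cHet vagina and 6.78 ± 0.39 in cHet uterus. Cd14 thus went opposite to Csf1r between the cHet organs. Within groups neither Cd14 (r of -0.093) nor Cd83 (-0.22) followed the mean of the 8 leukocyte genes. Which cells gave the signals of Cd14 and Cd83 was not tested. Between the genotypes 0 of the 21 were called, with a median of 0.06. Between cKO vagina and cHet uterus 1 was higher and 3 were lower, with a median of -0.18.

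Other pan-leukocyte genes, which mark blood cells of many kinds, were tested as a list of 11. Of these, 1 was lower in cHet vagina than in cHet uterus and 0 higher, with a list median of -0.02. The gene called was Evi2a, a membrane protein gene of blood cells, at -0.55 (SE 0.17, limma adjusted p = 0.0282). Its cHet vagina values were 4.14, 4.58, 4.91 and 4.60, above background in 3 of 4 pools, and its uterus values 5.09, 5.28, 5.10 and 4.96. Coro1a, an actin-binding protein of leukocytes, had -0.56 (SE 0.19, limma adjusted p = 0.0532). In cKO vagina against cHet uterus, Arhgdib and Cytip, the latter a cytohesin-binding protein, were higher by 0.45 and 0.63, and 0 of the 11 were lower.

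Genes around the named receptors were read beside them. Of 11 tested partners of the ITAM adapters, only Plcg2, a phospholipase downstream of Syk, was called between the cHet organs, higher in the vagina by 0.84 (SE 0.19, limma adjusted p = 0.00428). In cKO vagina against cHet uterus Plcg2 and the adapter gene Blnk were higher, by 1.10 and 1.13. Of 8 other complement genes, 3 were lower in cHet vagina, with -1.35 for the C1 inhibitor gene Serping1, -0.97 for C2 and -0.86 for Cd93. The alternative pathway gene Cfb was higher, by 1.19, and the list median was -0.45. Of 13 lysosome genes, 1 was higher in cHet vagina and 0 lower, and the median was 0.03. In cKO vagina against cHet uterus 4 of the 13 were higher and 1 lower, with a median of 0.43. Of the 8 complement genes 1 was higher and 3 lower there, with a median of -0.43. Between the genotypes 0 genes of these 3 lists were called.

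Markers of other blood cells were read in the same pools. Of 14 T and NK cell genes with a probe, 8 were above background on 0 arrays, Cd3g, Cd3d, Cd8a and Ncr1 among them, and only Prf1 was tested. Of 3 B cell genes tested 0 were called in any comparison. In neutrophil genes, of which 13 were tested, S100a8 and S100a9 were lower in cHet vagina than in cHet uterus, by 1.34 and 1.41, while Lcn2 and Ltf, which gland and surface epithelia also make, were higher by 3.69 and 1.64. Of 8 mast cell genes Hdc was higher by 4.07 and Kit lower by 0.57, and no other was called. The mast cell list as a whole did not follow Hdc, with a median of -0.18 and 3 of 8 differences positive. Of 7 dendritic cell and MHC class II genes, Zbtb46 was lower by 1.04, and 0 were higher.

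Markers of other tissues also differed between the cHet organs, some lower and some higher in the vagina. Of 9 endothelial genes 7 were lower in cHet vagina than in cHet uterus and 0 higher, with a median of -0.80. The mean deviation of the endothelial list was 0.40 to 0.71 in uterus pools, -0.44 to -0.08 in cHet vagina and -0.55 to -0.18 in cKO vagina. Of 6 red blood cell genes 3 were lower, and the median was -0.90. Of 7 epithelial genes 6 were higher, and the median was 1.15. Of 7 mesenchyme genes 1 was higher and 0 lower, and the median was 0.39. Of 9 skeletal muscle genes 0 were called, and the median was 0.45. The part of these tissues in the differences of the leukocyte genes was not tested.

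Between the genotypes, cKO vagina replicate 3 stood apart in several of these lists. Its mean deviation was 1.65 in red blood cell genes, 1.70 in skeletal muscle genes and 0.85 in neutrophil genes, against highest values of 0.07, 0.71 and 0.21 in the other cKO pools. The medians of cKO minus cHet vagina were 0.74, 0.40 and 0.29 in these 3 lists, and 0 genes of any list were called. In the same pool Laptm5 and C1qa stood at 7.71 and 4.88, their highest values among the cKO pools. Cd52, Cd53 and Fcer1g stood at 5.99, 5.41 and 7.48, just below cKO vagina replicate 1 at 6.00, 5.45 and 7.55. Before normalization their excess over background was highest in replicate 3 among the cKO pools, at 55, 31.1 and 184. Tyrobp, Csf1r and C1qb stood at 5.13, 5.93 and 6.78, each below another cKO pool. The mean deviation of the 8 leukocyte genes was 0.155 in replicate 3, against 0.154 in replicate 1, the next highest cKO pool. The part of these cells in the leukocyte values was not tested, and the values without this pool are given above.

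**Figure D5:**
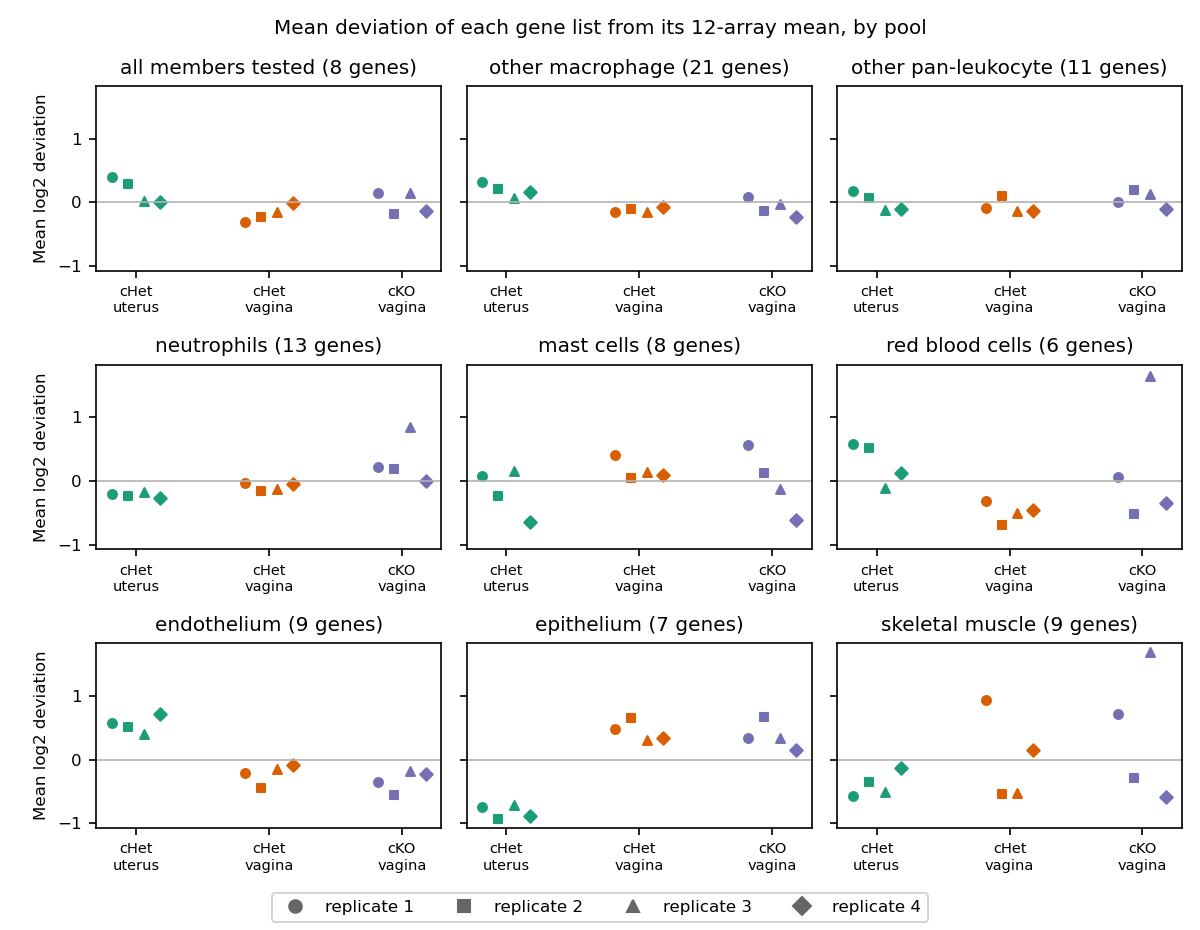
Mean deviation of each gene list from its mean over the 12 arrays (vertical axes, log2, the same range in every panel) in each pool, with symbols for replicates 1 to 4 and colours for the 3 groups. The 8 leukocyte genes spread over less than 1 log2 unit, the endothelial list separates the uterus from both vaginal groups, and cKO vagina replicate 3 is highest in the red blood cell list, at 1.65, and in the skeletal muscle list, at 1.70.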

How the data were processed

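RNA was extracted with Trizol and cleaned on columns with DNase, and biotinylated cRNA was hybridised to Illumina arrays, per the labels' protocols. The table used holds 1 linear intensity for each of 45281 probes and 12 samples, as deposited by the authors. Array means of 248.3 to 252.2 show that the arrays had been scaled; the method is not stated in the sources used here. Another 24 per-sample columns have names that fit none of the labels and were left out, so no detection p-values entered. The planned background correction was therefore made from each array's own intensities.

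Each array's background was set at the mode of its intensity values (68.6 to 90.6), and its SD (2.08 to 2.75) was mirrored from lower values. Intensities were corrected with normexp in limma 3.58.1 (R 4.3.3), with 16 added, and then quantile normalized and logged to log2. Probes past the 99% level of background on at least 4 arrays were kept. Of the probes, 34885 carried 1 gene symbol, 18 carried several and 10378 carried none in the platform annotation. Each gene was read from its brightest kept probe. Group means were fitted over all 12 arrays with lmFit and eBayes (15.8 degrees of freedom), and two-sided p-values were adjusted over 11298 genes. Precision is limited by the number of arrays.

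The 10 genes, the lists beside them and the tests were chosen with earlier results of these data known. Named genes are the 10, up to 4 called genes of each list with the largest change, the 8 genes with the most similar deviations, and Trp63; Coro1a, C1qc, Mrc1, Stab1, F13a1 and Lyz2 were named after their values were seen where this rule does not give them. Arrays of the same number in cHet uterus and cHet vagina deviated together across genes, with correlations of 0.116 to 0.428 in 4 of 4 pairs. Of the 4 numbers, 2 matched best with their own. Same-numbered pools of cKO and cHet vagina, which are of different genotypes, correlated at up to 0.489. These values therefore cannot tell whether the numbers pair the organs, and no label says so. The 25 alternatives changed the background correction, normalization, probe filter, choice of probe, arrays fitted, blocks or array weights, or left out arrays.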

Additional observations from a re-analysis of the deposited data

Results flagged for a closer look

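In 24 sets of 4 pools (8 genes in 3 groups), 4 single pools lay far from the other 3 of their group, with a gap to the nearest pool above Dixon's critical share of the group's range. Chance flags about 1 in 20 such groups. Fcer1g was at 7.783 in cHet uterus replicate 1, against 6.916 to 7.01 in the other uterus pools. Tyrobp was also highest in that pool, at 5.577 against 5.021 to 5.11. Fcer1g was at 6.672 in cKO vagina replicate 2, against 7.403 to 7.552. C1qa was at 4.281 in cHet vagina replicate 1, against 4.675 to 4.745, and was not above background in that pool.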

How the results depend on the processing

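Of the organ calls, 3 of 8 leukocyte genes became 0 without normalization between arrays, 1 in replicates 1 and 2 alone and 0 in replicates 3 and 4 alone, and 0 to 4 when 1 array was left out. For cKO vagina against cHet uterus the 1 call became 0 without background correction, without normalization, without a filter on dim probes, with only the 2 groups fitted, with array weights and in replicates 3 and 4 alone. It became 2 in replicates 1 and 2 alone, and 0 to 1 when 1 array was left out. Between the genotypes the count was 0 in all 25 settings. No called gene reversed its direction. The cause of these changes was not tested, beyond the smaller number of pools where replicates were left out. With array weights the organ count was 2, with Csf1r not called (0.0834), and with a block for replicates 1 and 2 against 3 and 4 it was 4, with Laptm5 called (0.0346). With the replicate block the counts were 3, 0 and 1, and this block changed no call of these genes, with limma adjusted p-values of 0.0152 (Csf1r), 0.025 (Cd52) and 0.0217 (Cd53) between the cHet organs. In cKO against cHet vagina same-numbered pools correlated at 0.0662 to 0.489, over 0.1 in 3 of 4 pairs, and in cKO vagina against cHet uterus at 0.0728 to 0.309, again in 3 of 4; 2 of 4 numbers matched best with their own in each. Genes called in cKO against cHet vagina numbered 43, but 77 with this block, 94 with the block for those sets, 25 with probes above background on all 12 arrays, 72 in replicates 1 and 2, 14 in replicates 3 and 4, and as few as 21 without 1 array. For the organs 2075 genes were called (1335 to 2655) and for cKO vagina against cHet uterus 2051 (1308 to 2617). Without normalization the median of all genes shifted by 0.115 for the genotypes and 0.168 for cKO vagina against cHet uterus. Signal over background limits C1qa most, and Ptprc and Cd68 were not measured.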
